A study of Homo sapiens with 4 samples.

Results

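The genes described here are 39 genes of the endoplasmic reticulum (ER) that fold, check, move or degrade newly made secretory proteins or that signal when such proteins stay unfolded. They were taken as a list of symbols, and each was read from the brightest probe that its RefSeq accession pairs with it. The arrays held 49 probes for these 39 genes, of 19483 genes named in all. Of the members, 30 had 1 probe and 9 had 2 or 3.

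RNA came from TR9_MeTA14 and TR15_MeTA5 cells, which both derive from LNCaP, a human prostate cancer cell line, and both carry the Tet repressor together with a tetracycline-regulated NFκB (AD)-MBD. This fusion protein joins the activation domain of NFκB to a methyl-CpG-binding domain, so that genes with methylated promoters can be switched on by adding a drug. Each line was profiled without tetracycline (-Tet) and after 4 days with it (+Tet), on 1 Cy3 array per condition and 4 arrays in all, on the same slide. The parental TR9 and TR15 lines, which carry the repressor and lack the fusion, are not among the arrays, so an effect of tetracycline itself and an effect of the fusion cannot be told apart. TR9_MeTA14 and TR15_MeTA5 are each a single derived line.

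The ER lumen folds proteins with the help of BiP, a chaperone of the HSP70 family encoded by HSPA5, its J-domain partners, the HSP90 paralogue encoded by HSP90B1, disulfide isomerases and the lectins calnexin and calreticulin. When unfolded protein builds up, the sensors IRE1 (ERN1), ATF6 and PERK (EIF2AK3) act on transcription factors that raise chaperone and degradation genes, a programme called the unfolded protein response. IRE1 splices the mRNA of XBP1, and an array value of XBP1 does not tell how much of that mRNA is spliced. Luminal prostate cells secrete large amounts of protein and rely on this machinery.

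Values are processed signals, that is, spot intensities after background subtraction by the scanner software, and levels are log2 of this signal minus the 75th percentile of the array's probes. That percentile lay between 367 and 777 on the 4 arrays, which makes the scaled +Tet to -Tet ratio smaller than the unscaled one by factors of 1.26 in TR9_MeTA14 and 1.48 in TR15_MeTA5. Between 20560 and 24217 of 34127 probes per array were well above background by the scanner software's own flag, and no spot was saturated. Replicate spots within an array gave a technical SD of 0.087 for a log2 ratio, and nothing measures how far cultures of the same condition vary. A within-line change therefore has no test, and the 2-fold cut-off of the study's methods serves as a rule of size. The only test, limma over both lines with the line as a block, has 1 residual degree of freedom. The defining LNCaP and luminal prostate markers KLK2, KLK3, TMPRSS2, FOLH1, HOXB13 and STEAP2 were well above background on all 4 arrays. The stromal markers COL3A1, DCN and LUM were not well above background on any array, but the stromal marker COL1A1 was on all 4. The leukocyte markers PTPRC and CD14 were well above background on 4 arrays and CD3E on 3.

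The promoters below are shown because the elements through which the unfolded protein response is known to act could be looked for in them, and because genes that carry such an element differed in these cells. Of the genes shown with an ERSE, HSPA5 and CRELD2 were higher with tetracycline in both lines, HSP90B1 moved little and XBP1 was lower, and HERPUD1, with an ERSE-II, was lower too. The sequences are RefSeq promoters on GRCh38.p14, read 5′ to 3′ on the strand of the gene, from 250 bases before to 50 bases after the annotated start. Capitals mark matches to the ER stress elements described after them. They lie at chr9:125241294-125241593 on the minus strand for HSPA5, chr22:49918384-49918683 on the plus strand for CRELD2, chr12:103930160-103930459 on the plus strand for HSP90B1, chr22:28800520-28800819 on the minus strand for XBP1 and chr16:56931892-56932191 on the plus strand for HERPUD1.
HSPA5: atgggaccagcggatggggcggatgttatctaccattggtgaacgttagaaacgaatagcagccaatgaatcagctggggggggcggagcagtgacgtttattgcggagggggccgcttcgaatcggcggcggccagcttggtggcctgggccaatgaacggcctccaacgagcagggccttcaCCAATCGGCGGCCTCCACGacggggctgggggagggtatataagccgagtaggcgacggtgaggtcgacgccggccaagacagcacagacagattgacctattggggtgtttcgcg
CRELD2: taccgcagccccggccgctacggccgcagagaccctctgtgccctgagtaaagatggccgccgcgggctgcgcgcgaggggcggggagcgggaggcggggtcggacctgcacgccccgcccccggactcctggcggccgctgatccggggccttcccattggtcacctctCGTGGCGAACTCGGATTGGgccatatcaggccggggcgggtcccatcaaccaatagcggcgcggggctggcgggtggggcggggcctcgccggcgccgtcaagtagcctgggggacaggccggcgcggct
HSP90B1: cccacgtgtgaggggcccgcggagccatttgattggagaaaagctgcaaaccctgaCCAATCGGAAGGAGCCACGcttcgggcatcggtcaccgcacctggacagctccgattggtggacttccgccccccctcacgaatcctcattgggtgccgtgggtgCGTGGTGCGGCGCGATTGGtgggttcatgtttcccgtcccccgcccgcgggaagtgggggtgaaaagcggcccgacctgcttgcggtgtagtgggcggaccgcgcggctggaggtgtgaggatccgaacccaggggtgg
XBP1: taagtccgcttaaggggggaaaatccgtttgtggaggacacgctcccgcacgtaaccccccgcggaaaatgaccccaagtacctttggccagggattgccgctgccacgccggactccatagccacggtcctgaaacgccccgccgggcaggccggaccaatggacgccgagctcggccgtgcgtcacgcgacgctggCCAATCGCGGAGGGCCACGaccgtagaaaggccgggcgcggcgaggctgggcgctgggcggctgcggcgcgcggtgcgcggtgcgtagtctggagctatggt
HERPUD1: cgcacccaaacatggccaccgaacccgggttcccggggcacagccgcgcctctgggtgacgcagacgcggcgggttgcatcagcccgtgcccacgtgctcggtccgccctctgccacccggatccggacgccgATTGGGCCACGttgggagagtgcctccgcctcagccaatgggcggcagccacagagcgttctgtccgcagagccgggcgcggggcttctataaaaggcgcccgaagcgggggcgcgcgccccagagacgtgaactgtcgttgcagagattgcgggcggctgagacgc

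Of the 39 genes, 36 had a promoter in the RefSeq table, and PDIA3, DERL1 and SEC24D had none there. The motifs searched, on both strands, were the ER stress element ERSE (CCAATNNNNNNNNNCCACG), the shorter ERSE-II (ATTGGNCCACG) and the unfolded protein response element UPRE (TGACGTGG). ERSE matched in 6 of the 36 promoters (16.7%) and in 0.0806% of all 27305 promoters of the same length. ERSE-II matched in 3 (8.33%) beside 0.0549%, and UPRE in 2 (5.56%) beside 0.795%. At least 1 of them was found in 10 member promoters (27.8%) and in 0.927% of all promoters. ERSE is the element through which ATF6 and XBP1 are known to act on chaperone genes, and membership of the list follows that knowledge, so these shares describe the list and test nothing.

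ERSE was found in HSPA5, HSP90B1 (2 matches), CRELD2, CALR, CANX and XBP1. The match of HSPA5 lay 66 to 48 bases before its start, that of CRELD2 80 to 62 and that of XBP1 52 to 34. ERSE-II was found in HYOU1 (2 matches), SDF2L1 and HERPUD1, and UPRE in DNAJC10 and HYOU1, where it overlaps the ERSE-II match farther from the start. The member promoters held a median of 30.5 CpG dinucleotides, from 4 to 48, beside a median of 14 over all promoters. A match says only that these letters stand in the window, and methylation was not measured on these arrays.

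**Figure D1:**
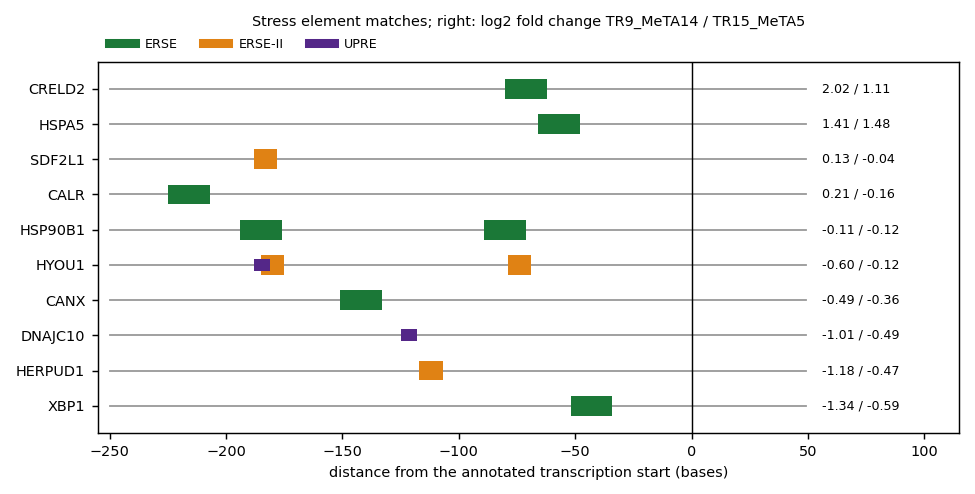
Positions of ERSE, ERSE-II and UPRE matches in the 10 member promoters that hold any, in bases from the annotated start, with the log2 fold change of each gene in TR9_MeTA14 and TR15_MeTA5 at the right. Genes are ordered by the mean of both lines: CRELD2 (2.02 and 1.11) and HSPA5 (1.41 and 1.48) stand at the top and XBP1 (-1.34 and -0.59) at the bottom, and all 3 carry an ERSE.

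The comparison of +Tet with -Tet addresses how these genes differ after tetracycline, given to induce NFκB (AD)-MBD. In both lines HSPA5 and CRELD2 were at least 2-fold higher, and most of the other members were somewhat lower under the main scaling, by more in TR9_MeTA14 than in TR15_MeTA5. In TR9_MeTA14 cells, 2 of 39 members (5.13%) were at least 2-fold higher, beside 16.8% of 15075 genes compared. A further 10 members (25.6%) were at least 2-fold lower there, beside 15.1% of all genes. In TR15_MeTA5 cells, 2 members (5.13%) passed the cut-off upwards and none downwards, beside 9.78% and 2.21% of 14337 genes. The same 2 genes were higher in both lines, and over all genes 8.21% were higher and 0.838% lower in both lines by this cut-off.

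The median log2 fold change of the members was -0.49 in TR9_MeTA14, where the median of all genes was -0.064. It was -0.24 in TR15_MeTA5, where that of all genes was -0.16. Members below the median of all genes numbered 28 and 27 of 39, respectively. The direction in TR15_MeTA5 rests on the scaling. Scaling on spike-in probes raised every log2 ratio by 0.14 in TR9_MeTA14 and by 0.43 in TR15_MeTA5, which put the median of the members at -0.35 and, over the 38 then compared, at 0.20, and that of all genes at 0.075 and 0.27. Under it 26 of 39 members were below 0 in TR9_MeTA14, and 8 of 38 in TR15_MeTA5, where ERN1 could not be compared. Relative to all genes the members lay at -0.42 in TR9_MeTA14 under both scalings, and at -0.083 and -0.070 in TR15_MeTA5, where quantile normalization left -0.021 and probes well above background on all 4 arrays -0.043. Under the main scaling 27 members were lower in both lines, 4 were higher in both and 8 differed in sign, and the change was smaller in TR15_MeTA5 for 30 of 39. Changes beyond 0.17 on the log2 scale, 2 technical SDs, were seen for 33 members in TR9_MeTA14 and 27 in TR15_MeTA5. Below 0 under the main scaling were 29 and 33 of the 39 members, beside 7978 of 15075 genes in TR9_MeTA14 and 9188 of 14337 in TR15_MeTA5. The log2 change was lower in TR9_MeTA14 than in TR15_MeTA5 for 26 of 39 members and for 6740 of 13970 genes. Over all genes the shares past 2-fold were smaller in TR15_MeTA5 too, at 9.78% and 2.21% against 16.8% and 15.1%. The counts by sign over both lines, of smaller changes and beyond 2 technical SDs have no all-gene count beside them. They therefore do not set the members apart from other genes.

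**Figure D2:**
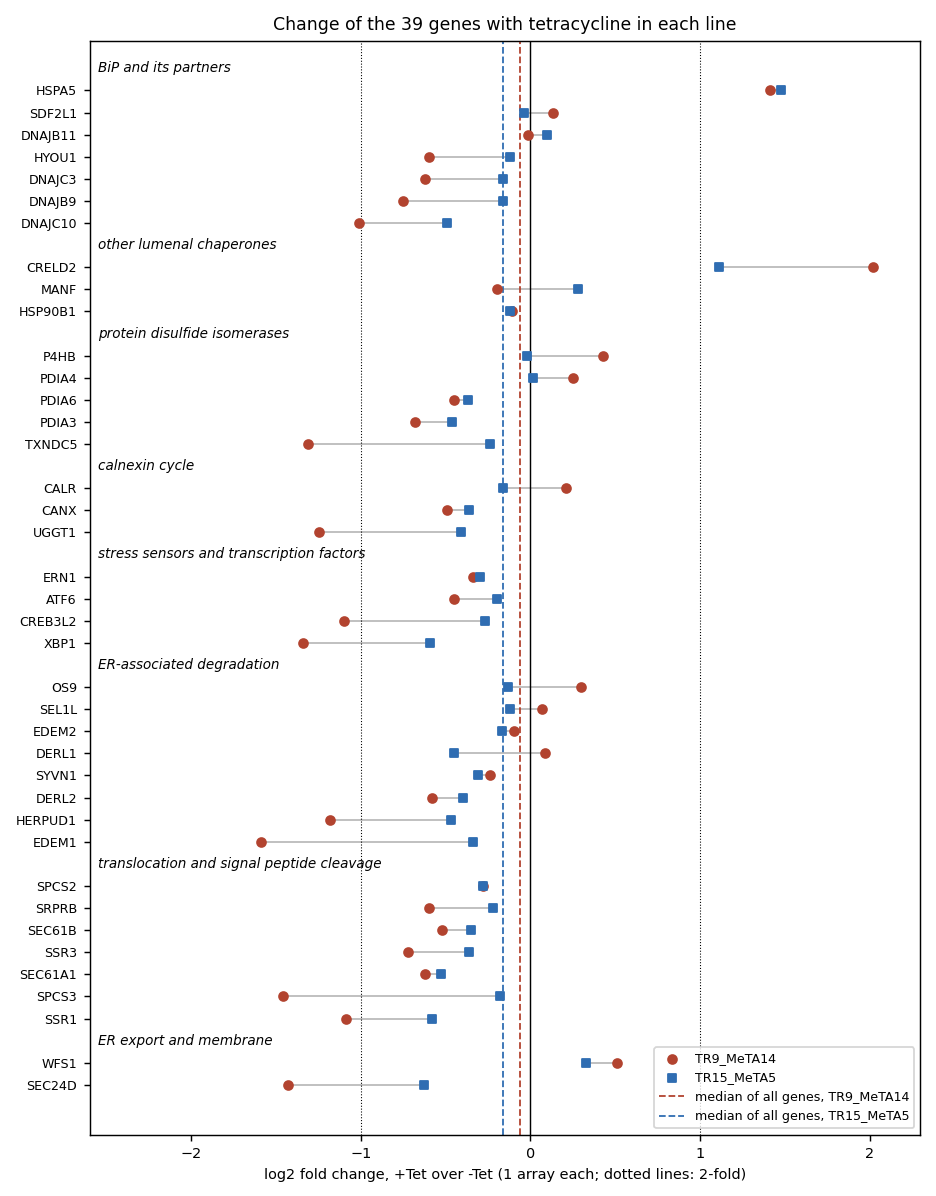
Log2 fold change of each of the 39 genes, +Tet over -Tet, in TR9_MeTA14 (circles) and TR15_MeTA5 (squares), grouped by role, with 1 array behind each condition and no error bar. HSPA5 and CRELD2 are the only members beyond 2-fold (dotted lines) on the right, 10 members lie beyond it on the left in TR9_MeTA14, and none does in TR15_MeTA5.

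Over both lines, limma called 0 of the 39 members higher and 0 lower at an adjusted p below 0.05, and 2 were higher and 4 lower at an unadjusted p below 0.05. Over all 22808 probes tested, 2.6% were called higher and 0.0132% lower. At the unadjusted threshold 13.2% of 14458 genes were higher and 8.33% lower. The 2 higher members at the unadjusted threshold were HSPA5 and CRELD2, and the 4 lower ones were SEC24D, XBP1, SSR1 and DNAJC10. HSPA5 passed the adjusted threshold under some other settings, with an adjusted p by limma of 0.0445 on spike-in scaling and 0.0327 with no filter on dim probes. A limma p that misses the threshold with 1 residual degree of freedom does not show that a gene stayed level.

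Among BiP and its partners, HSPA5 itself was the only gene past 2-fold upwards. Under the main scaling 5 of the 7 genes were below 0 in each line, whereas with spike-in scaling 4 were below 0 in TR9_MeTA14 and 1 in TR15_MeTA5. The HSPA5 signal in TR9_MeTA14 was 642 without and 2144 with tetracycline, and in TR15_MeTA5 it was 272 and 1119. Both +Tet arrays lay above both -Tet arrays, before and after scaling. After scaling HSPA5 was 2.65-fold higher in TR9_MeTA14 (log2 1.41) and 2.78-fold higher in TR15_MeTA5 (log2 1.48), and limma gave a log2 fold change of 1.44 (SE 0.25, adjusted p = 0.0813), higher in 2 of 2 lines. In TR9_MeTA14, 12.2% of all genes had a larger increase, and in TR15_MeTA5 6.72% did. HSPA5 was read by 1 probe, so no second probe speaks to this change.

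None of the partners of BiP reached 2-fold higher in either line. DNAJB9 (ERdj4), a J-domain protein and a known target of XBP1, had signals of 1967 and 1470 in TR9_MeTA14 and 695 and 918 in TR15_MeTA5, without and with tetracycline, or scaled log2 changes of -0.75 and -0.16. SDF2L1, a lumenal partner of the ERdj3 complex, read 31015 and 42802 in TR9_MeTA14 and 19862 and 28571 in TR15_MeTA5, and after scaling moved by 0.13 and -0.040, both within 2 technical SDs, although quantile normalization gave 0.50 in TR9_MeTA14. DNAJC10 (ERdj5), a J-domain protein that reduces disulfides before degradation, was 2.02-fold lower in TR9_MeTA14 and 1.41-fold lower in TR15_MeTA5, and its second probe gave 1.83-fold and 1.35-fold in the same direction. DNAJB11 (ERdj3) moved by -0.014 and 0.10, DNAJC3 (p58IPK) by -0.62 and -0.16, and HYOU1, the nucleotide exchange factor of BiP, by -0.60 and -0.12 on the log2 scale. Of the 7 genes of the group, then, 1 passed 2-fold upwards in each line and 1 downwards in TR9_MeTA14. The TR9_MeTA14 value was below the TR15_MeTA5 value for 6 of them, beside 6740 of 13970 genes.

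Among the other lumenal chaperones, CRELD2 stood apart from HSP90B1 and MANF. CRELD2, a secreted ER protein with isomerase activity that is known as an ER stress target, had signals of 10490 and 53608 in TR9_MeTA14 and 5778 and 18436 in TR15_MeTA5. Both +Tet arrays again lay above both -Tet arrays. The scaled increase was 4.06-fold in TR9_MeTA14 and 2.16-fold in TR15_MeTA5, and limma gave a log2 fold change of 1.57 (SE 0.34, adjusted p = 0.135), higher in 2 of 2 lines. HSP90B1 (GRP94) read 48014, 56024, 35948 and 49003 in the same order, which scaled to log2 changes of -0.11 and -0.12. With quantile normalization the HSP90B1 value in TR9_MeTA14 was 0.49, and with spike-in scaling that in TR15_MeTA5 was 0.31, so its direction is not settled. MANF, a secreted stress-responsive ER protein, moved by -0.20 in TR9_MeTA14 and 0.28 in TR15_MeTA5.

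The disulfide isomerases were mixed. P4HB (PDI) read 56797 and 96264 in TR9_MeTA14 and 39480 and 57655 in TR15_MeTA5, for scaled log2 changes of 0.43 and -0.018, and its second probe gave 0.57 and -0.070. With quantile normalization, alone or after normexp, P4HB passed 2-fold upwards in TR9_MeTA14, at 1.21 and 1.22 on the log2 scale. PDIA4 (ERp72) read 3088, 4615, 2411 and 3608, for 0.25 and 0.017. TXNDC5 (ERp46) was lower, from 2654 to 1346 in TR9_MeTA14, while it read 1834 and 2289 in TR15_MeTA5. The scaled change of TXNDC5 was thus -1.31 in TR9_MeTA14 and -0.24 in TR15_MeTA5, a gap of 1.07 between the lines that could not be tested, and its second probe gave -1.14 and 0.001. PDIA3 (ERp57), the isomerase that works with the lectin chaperones, moved by -0.68 and -0.46, and PDIA6 (P5) by -0.45 and -0.37.

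In the calnexin cycle, which holds glycoproteins in the ER until they fold, CALR moved by 0.21 and -0.16 and CANX by -0.49 and -0.36 on the log2 scale. With quantile normalization the CALR value in TR9_MeTA14 was 0.98. UGGT1, the folding sensor that re-glucosylates misfolded glycoproteins, was the lowest of the 3. Its signals were 703 and 372 in TR9_MeTA14 and 272 and 302 in TR15_MeTA5, without and with tetracycline. After scaling UGGT1 was 2.38-fold lower in TR9_MeTA14 and 1.33-fold lower in TR15_MeTA5.

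All 4 sensors and transcription factors of the list were lower in both lines under the main scaling, 2 of them by at least 2-fold in TR9_MeTA14, and with spike-in scaling 4 of 4 stayed below 0 in TR9_MeTA14 but 1 of 3 compared, XBP1, in TR15_MeTA5. XBP1, the transcription factor downstream of IRE1, read 23890 without and 11838 with tetracycline in TR9_MeTA14, and 5308 and 5205 in TR15_MeTA5. The 2 TR9_MeTA14 arrays lay above the 2 TR15_MeTA5 arrays, and after scaling the +Tet array was lower in each line. The change was 2.54-fold in TR9_MeTA14 and 1.51-fold in TR15_MeTA5, and limma gave a log2 fold change of -0.97 (SE 0.32, adjusted p = 0.236), lower in 2 of 2 lines. CREB3L2, a membrane-bound factor of the ATF6 type, moved by -1.10 and -0.27, but its second probe gave 0.087 and -0.25, so the TR9_MeTA14 value depends on the probe.

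The sensors themselves changed by less than 2-fold. ATF6 read 1836 and 1693 in TR9_MeTA14 and 1193 and 1535 in TR15_MeTA5, for scaled log2 changes of -0.45 and -0.20. ERN1 was close to background throughout, with signals of 27.4, 27.1, 17 and 20.4, and it was the only member not well above background on every array, missing the flag on TR15_MeTA5 +Tet. Its log2 change was -0.34 in TR9_MeTA14. In TR15_MeTA5 the measured ratio was 1.23-fold lower, counted as a bound because the +Tet signal missed the background flag.

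Genes of ER-associated degradation, which send misfolded proteins back to the cytosol for the proteasome, lay close together in TR15_MeTA5 and far apart in TR9_MeTA14. In TR15_MeTA5 all 8 were between -0.47 and -0.12 on the log2 scale, and 6 of them were above 0 with spike-in scaling. In TR9_MeTA14 they ran from -1.59 to 0.30. EDEM1, a mannosidase-like factor that selects glycoproteins for degradation, read 112 and 47 in TR9_MeTA14 and 71.4 and 83.3 in TR15_MeTA5. It was 3-fold lower in TR9_MeTA14, the largest decrease of the members under the main setting, and 1.27-fold lower in TR15_MeTA5. With normexp and quantile normalization its log2 change in TR9_MeTA14 was -0.80, short of 2-fold. HERPUD1, a membrane protein of the degradation complex, read 24372 and 13508 in TR9_MeTA14 and 10517 and 11263 in TR15_MeTA5, or 2.27-fold and 1.38-fold lower after scaling.

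The other members of this machinery changed less. SEL1L, the adaptor of the ubiquitin ligase SYVN1 (HRD1), moved by 0.070 and -0.12, and SYVN1 by -0.24 and -0.31. The probes of SEL1L lay 0.34 apart in TR15_MeTA5, the widest spread there of the 9 members with several probes. That spread exceeds the change of -0.12 itself. The lectin OS9 moved by 0.30 and -0.13, EDEM2 by -0.098 and -0.17, DERL1 by 0.088 and -0.45 and DERL2 by -0.58 and -0.40. None of these 6 reached 2-fold in either line.

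Translocation and signal peptide cleavage genes, which bring nascent proteins into the ER, were all lower in both lines under the main scaling, 7 of 7, while with spike-in scaling 7 of 7 were below 0 in TR9_MeTA14 and 2 of 7 in TR15_MeTA5. SPCS3, a subunit of signal peptidase, read 4482 and 2049 in TR9_MeTA14 and 2779 and 3616 in TR15_MeTA5, for scaled log2 changes of -1.46 and -0.18. This gap of 1.28 between the lines was the largest of any member, followed by EDEM1 and TXNDC5, and the design leaves no test for it. SSR1, a subunit of the translocon-associated complex, read 13033, 7689, 8759 and 8674, and was 2.13-fold and 1.49-fold lower after scaling. All 3 probes of SSR1 were lower in both lines, with log2 changes of -1.09 to -0.54 in TR9_MeTA14, while those in TR15_MeTA5 ran from -0.58 to -0.30. The channel genes SEC61A1 (-0.62 and -0.53) and SEC61B (-0.52 and -0.35), SSR3 (-0.72 and -0.36), SPCS2 (-0.28 and -0.28) and the signal recognition particle receptor gene SRPRB (-0.60 and -0.22) stayed within 2-fold.

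The last 2 members went opposite ways. SEC24D, a cargo-binding coat subunit of vesicles that leave the ER, read 429 and 200 in TR9_MeTA14 and 75.5 and 72.3 in TR15_MeTA5, or 2.70-fold and 1.54-fold lower after scaling. WFS1, a membrane protein of the ER that is known to restrain ATF6, read 1112 and 1989 in TR9_MeTA14 and 662 and 1234 in TR15_MeTA5, or 1.42-fold and 1.26-fold higher after scaling. WFS1 and PDIA4 were the 2 genes, besides HSPA5 and CRELD2, that were higher in both lines, and neither reached 2-fold.

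**Figure D3:**
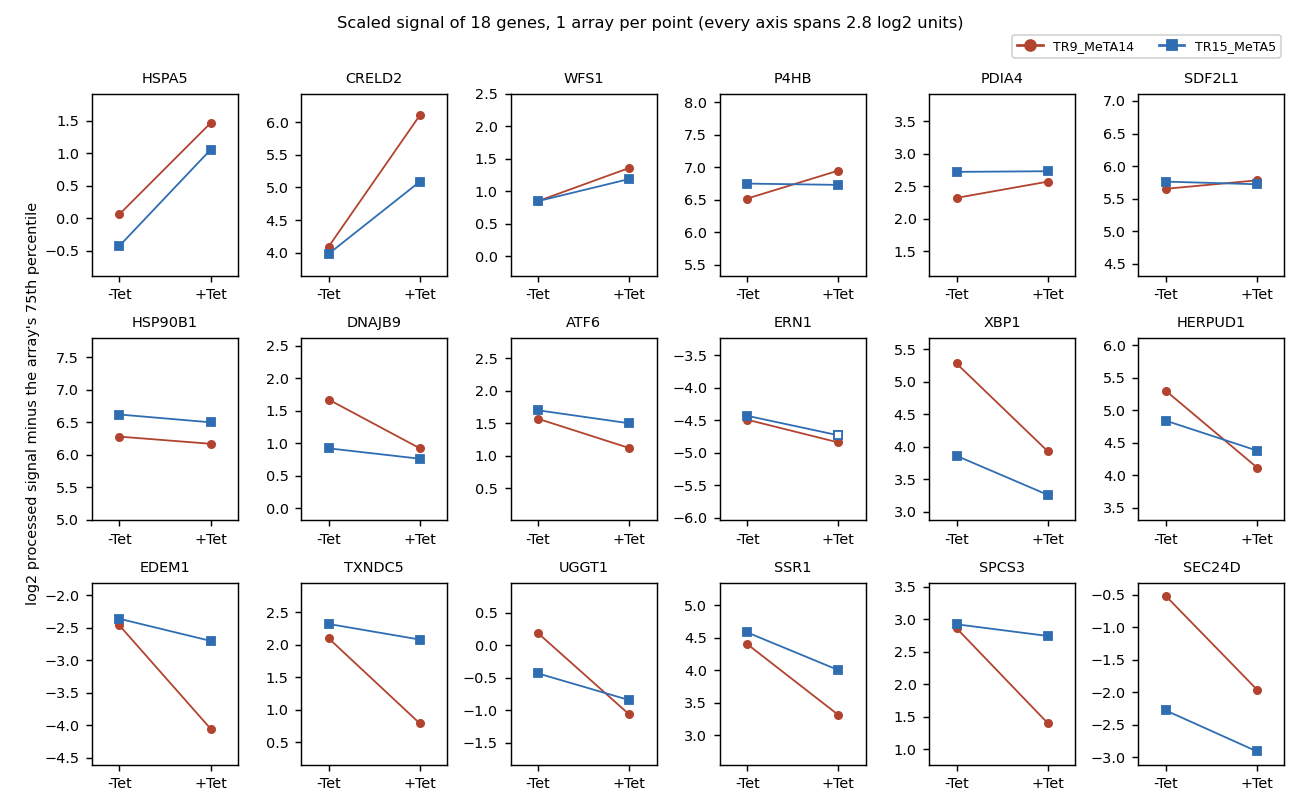
Scaled log2 signal of 18 of the genes on the 4 arrays, 1 array per point, with lines joining the -Tet and +Tet arrays of TR9_MeTA14 (circles) and TR15_MeTA5 (squares). The open square of ERN1 marks an array on which it was not well above background, every axis spans 2.8 log2 units, and levels are not comparable between panels, which hold different probes. HSPA5 and CRELD2 climb in both lines, whereas EDEM1, TXNDC5 and SPCS3, on the probes drawn, start at about the same level in both lines and drop steeply in TR9_MeTA14.

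Without tetracycline the 2 lines already differed in some members. XBP1 was 2.67-fold lower and SEC24D 3.38-fold lower in TR15_MeTA5 -Tet than in TR9_MeTA14 -Tet, and these 2 of 39 members passed 2-fold, beside 5.19% of 13788 genes lower in TR15_MeTA5. No member was at least 2-fold higher in TR15_MeTA5 -Tet, beside 8.17% of all genes, and the highest was CALR at 1.87-fold. The median difference of the members was 0.0037 on the log2 scale, beside 0.12 over all genes. These values share the TR9_MeTA14 -Tet array with the changes given above.

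With tetracycline, TXNDC5 (2.44-fold), EDEM1 (2.54-fold) and SPCS3 (2.53-fold) were at least 2-fold higher in TR15_MeTA5 than in TR9_MeTA14, beside 14.2% of all genes. On these brightest probes their -Tet levels had differed between the lines by at most 1.16-fold. The second probe of TXNDC5 was 1.4-fold higher in TR15_MeTA5 without tetracycline and 3.09-fold higher with it. CRELD2 was 2.03-fold lower in TR15_MeTA5 +Tet, the only member past 2-fold in that direction, beside 10.4% of all genes. XBP1 and SEC24D were 1.59-fold and 1.93-fold lower in TR15_MeTA5 +Tet.

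**Figure D4:**
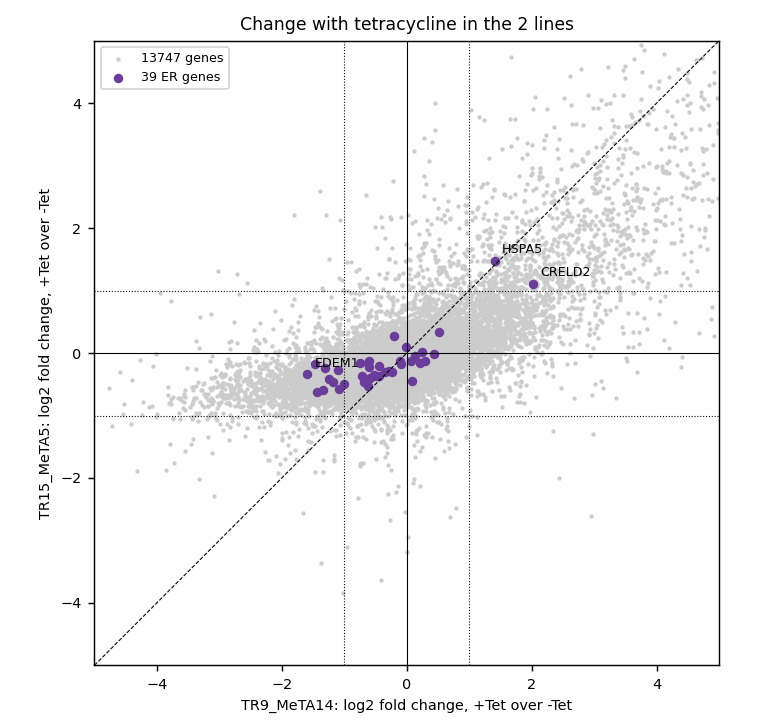
Log2 fold change with tetracycline in TR9_MeTA14 (horizontal) against TR15_MeTA5 (vertical) for 13747 genes compared in both lines (grey) and the 39 ER genes (purple); 223 genes lie outside the axes. Dotted lines mark 2-fold and the dashed line equal change: HSPA5 and CRELD2 lie in the upper right, and most other members spread to the left, where TR9_MeTA14 values reach -1.59 and TR15_MeTA5 values stop at -0.63.

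Another 106 genes of ER folding, degradation and traffic had median log2 changes of -0.38 in TR9_MeTA14 and -0.29 in TR15_MeTA5, or -0.24 and 0.15 with spike-in scaling. By the 2-fold rule 4 of them were higher and 15 lower in TR9_MeTA14, and 4 of 104 compared were higher and 2 lower in TR15_MeTA5, beside the 16.8% and 15.1% of all genes in TR9_MeTA14 and the 9.78% and 2.21% in TR15_MeTA5 given above. By limma 1 of 104 was higher at an adjusted p below 0.05 and none was lower, beside 2.6% and 0.0132% of all probes tested. At an unadjusted p below 0.05 by limma, 5 were higher and 13 lower, beside 13.2% and 8.33% of all genes. The gene called was PDIA2, a disulfide isomerase otherwise known from the pancreas, which read 486 and 5559 in TR9_MeTA14 and 133 and 1093 in TR15_MeTA5. It was 9.09-fold and 5.56-fold higher (limma log2 fold change 2.83, SE 0.30, adjusted p = 0.032).

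Also at least 2-fold higher in both lines were KDELR3, a receptor that returns escaped ER proteins, by 4.15-fold and 2.50-fold, and SEC16A, which organises ER exit sites, by 3.05-fold and 2.33-fold. At least 2-fold lower in both lines were TRIB3, a target of ATF4 and CHOP, by 13.3-fold and 3.40-fold, and ERO1A, the oxidase that recharges PDI, by 6.97-fold and 2.06-fold. None of these 4 passed the adjusted threshold of limma, with adjusted p-values of 0.102, 0.0969, 0.108 and 0.182, respectively.

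The PERK arm and ATF4 targets were the lowest of the 7 groups of other genes in TR9_MeTA14, with a median of -2.07. There 8 of 10 were at least 2-fold lower, beside 15.1% of all genes. In TR15_MeTA5 their median was -0.47, with 1 of 10 at least 2-fold lower and 1 higher, beside 2.21% and 9.78% of all genes. ATF4 itself read 149143 and 51221 in TR9_MeTA14 and 55925 and 58571 in TR15_MeTA5, for scaled log2 changes of -1.87 and -0.50. DDIT3 (CHOP), its pro-apoptotic target, read 1507 and 394, then 244 and 270, for scaled log2 changes of -2.27 and -0.42. All 10 genes of the group were lower in TR15_MeTA5 -Tet than in TR9_MeTA14 -Tet, 6 of them by at least 2-fold. Over all genes, 5789 of 13788 were lower in that comparison, and 5.19% by at least 2-fold. These differences share the TR9_MeTA14 -Tet array with the changes in TR9_MeTA14. The gene at least 2-fold higher with tetracycline in TR15_MeTA5 was PPP1R15A (GADD34), the phosphatase subunit that reverses the PERK signal. It read 199 and 444 in TR9_MeTA14 and 81.3 and 261 in TR15_MeTA5, for scaled log2 changes of 0.83 and 1.12. ATF4, DDIT3 and PPP1R15A were chosen for mention after their values were seen.

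Among 19 cytosolic and mitochondrial heat shock genes, HSPA1A and HSPA1B passed 2-fold upwards in each line, and the medians over the 18 compared were -0.051 and -0.099. In TR9_MeTA14, 3 of the 18 were at least 2-fold higher and 3 lower, beside 16.8% and 15.1% of all genes. In TR15_MeTA5, 2 were higher and 0 lower, beside 9.78% and 2.21%. HSPA1A, an inducible HSP70 gene, was not well above background on either -Tet array (signals of 3.54 and 3.51) and read 27731 and 7185 on the +Tet arrays. This gave at least 1424-fold and at least 315-fold higher signals, measured against the lowest signal well above background on the -Tet array (limma adjusted p = 0.0139). HSPA1B read 6223 and 20220 in TR9_MeTA14 and 3556 and 13409 in TR15_MeTA5, or 2.58-fold and 2.55-fold higher. HSPA1A and HSPA1B are near-identical copies that a probe may not separate, and HSPA5 is a more distant relative in the same family. Whether RNA of HSPA1A adds to the signal of the single HSPA5 probe was not tested.

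**Figure D5:**
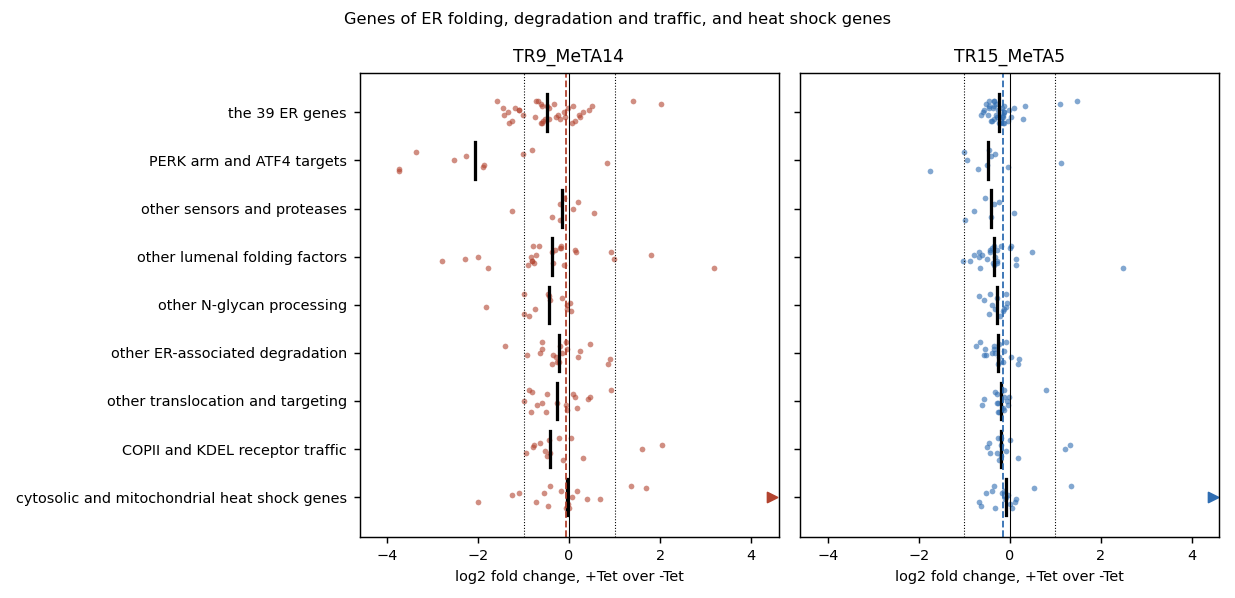
Log2 fold change with tetracycline of each gene in the 39-gene list, in 7 groups of other ER pathway genes and in the heat shock genes, for TR9_MeTA14 (left) and TR15_MeTA5 (right). Black bars are group medians, dashed lines the median of all genes and dotted lines 2-fold; the arrowheads at the right edge stand for HSPA1A, which lies beyond the axis. The PERK arm and ATF4 targets, with a median of -2.07 in TR9_MeTA14, are farthest left.

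Markers of the cells moved with these changes. Each of the 6 LNCaP and luminal prostate markers named above was lower with tetracycline in both lines, with the main and with spike-in scaling, 5 of them by at least 2-fold in TR9_MeTA14 and none in TR15_MeTA5, with median log2 changes of -1.80 and -0.68. Their summed scaled signal, in units of the 75th percentile, was 378 and 114 in TR9_MeTA14 and 506 and 315 in TR15_MeTA5, without and with tetracycline. The summed signal of the 3 leukocyte markers was 0.309 and 1.32 in TR9_MeTA14 and 0.555 and 0.925 in TR15_MeTA5. Within it CD14 was 9.61-fold and 4.77-fold higher. PTPRC was 1.18-fold higher in TR9_MeTA14 and 1.53-fold lower in TR15_MeTA5. CD3E was 1.33-fold higher and 2.55-fold lower, and it missed the background flag on TR15_MeTA5 +Tet. The median log2 change of the 3 was 0.41 in TR9_MeTA14 and -0.62 in TR15_MeTA5. The summed signal of the 4 stromal markers, of which COL1A1 alone was well above background, was 0.797 and 0.675, then 0.135 and 0.226. Their part in the values of the ER genes was not tested. Each array holds bulk RNA of 1 LNCaP-derived line, so a change in the share of its cells that express a marker and a change per cell cannot be told apart.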

How the data were processed

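Gene expression was measured on 4 one-colour Agilent whole human genome arrays, 1 per combination of line and treatment. The authors deposited the scanner output of Agilent Feature Extraction, version 10.7.3.1 in the file headers and 9.5.1 in the submitters' processing notes, in which the processed signal is a spot intensity after background subtraction, without scaling across arrays. The series table they deposited repeats these intensity values. How arrays were normalized against each other is not given in the sources used here.

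From these intensities, outlier spots were left out, log2 signals were averaged per probe, and each array's 75th percentile, taken over its non-control probes, was subtracted. Probes were named through RefSeq accessions (25422 probes, 74.5%, to 19483 genes), and the brightest probe stood for a gene. A fold was compared where the brighter array was well above background, and given as a bound where the dimmer one was not. limma 3.58.1 in R 4.3.3 was fitted to the probes that passed the background flag on 2 arrays or more, with a block for cell line, a trend on intensity and Benjamini-Hochberg adjusted p-values, after a run on simulated data, whose recovery of changes depended on the noise assumed. The arrays lay on 1 slide and 1 scan day, so neither could be tested as a batch. Nothing in the labels says that arrays came from separate cultures. Python 3.11.15 with pandas 2.3.3 served for the rest.

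The members and lists were chosen with earlier results of these data known. Values on all 4 arrays are printed for members at least 2-fold changed in the same direction in both lines, the 5 highest and 5 lowest by the mean of both lines, the 3 whose lines differ most, and HSPA5, HSP90B1, DNAJB9, HERPUD1, SDF2L1, XBP1, ERN1 and ATF6. Other pathway and heat shock genes are named where they were at least 2-fold changed the same way in both lines. Part of the luminal marker list is not reported here. The printed promoters were picked after the values were seen. Alternatives were other normalizations, background correction, filters, probe rules, cut-offs (1.5-fold and 3-fold) and limma without the block or the trend.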

Additional observations from a re-analysis of the deposited data

Results flagged for a closer look

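The genes below moved in opposite directions in the lines, each by more than 0.17 on the log2 scale, 2 technical SDs within an array. This limit was set after the values were seen, and the differences between lines were not tested, since each rests on 1 array per condition. Among the members, MANF had a log2 fold change of -0.20 in TR9_MeTA14 and 0.28 in TR15_MeTA5. Among the other genes of the pathway, TMX4, a transmembrane thioredoxin of the ER, had 1.81 and -0.78, the widest gap of these. UFD1, an adaptor of the extraction machinery for ER-associated degradation, had 0.47 and -0.23. MBTPS1, the site-1 protease that cuts ATF6, had 0.19 and -0.23. SRP9, a subunit of the signal recognition particle, had 0.18 and -0.32. Scaling on spike-in probes raises the TR15_MeTA5 values by 0.43, and the TR9_MeTA14 values by 0.14, which leaves opposite signs in MANF and TMX4 and puts UFD1, MBTPS1 and SRP9 above 0 in both lines.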

How the results depend on the processing

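HSPA5 and CRELD2 stayed past 2-fold upwards in each line under every normalization, filter and probe rule tried, with 2 members counted in each of them for both lines together. Cut-offs moved the counts: at 3-fold 1 member was higher and 1 lower in TR9_MeTA14, 0 were higher in TR15_MeTA5 and 0 in both lines, and at 1.5-fold 17 were lower in TR9_MeTA14, 2 in TR15_MeTA5 and 2 in both. Shares over all genes were taken at 2-fold only, so the counts at 3-fold and 1.5-fold cannot be set against other genes. The median log2 fold change of the members was -0.35 in TR9_MeTA14 with spike-in scaling, and in TR15_MeTA5 it was -0.13 with normexp and quantile normalization and 0.20 with spike-in scaling. For limma, 1 member, HSPA5, was called higher with spike-in scaling and 1, again HSPA5, with no filter on dim probes. Its adjusted p by limma ranged from 0.0327 to 0.157 over all settings. P4HB joined the genes past 2-fold upwards in TR9_MeTA14 under both quantile settings, which made 3. The lower count in TR9_MeTA14 lay between 7 and 10 under the alternatives to the normalization, filter and probe rule. Of 78 single values, 42 moved by more than the technical SD with normexp and quantile normalization, 32 with quantile normalization, 8 with the mean over probes and 77 of 77 with spike-in scaling, and none that passed 2-fold changed sign. The limma fit pairs the arrays of a line through its block, and without that block the adjusted p of HSPA5 was 0.157. Replicate numbers gave no further pairing, since every array carries the same one, and with 1 array per condition none could be left out. ERN1 was near background, which limits its values, and HSPA5 and the other 29 genes with 1 probe have no second probe.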
